A study of Mus musculus with 8 samples.

Results

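The genes described here are 10 genes of the endoplasmic reticulum chaperone group, taken by symbol from a deposited table of 23504 gene symbols in mouse renal cortex: Hspa5, Hsp90b1, Hyou1, Calr, Pdia4, Pdia6, Manf, Sdf2l1, Creld2 and Xbp1. All 10 were present in the table and all 10 passed the filter on low counts that left 14711 genes for testing. The mice were wild type C57Bl6/J, placed at 6 weeks of age on a high fat diet or on the matching control diet and kept on it for 9 weeks, until 15 weeks of age. RNA came from the manually dissected outer cortex of the kidney, with 4 libraries per diet, called here high fat A, B, F and G and control I, J, L and M after the letters in their labels. The labels do not say whether the libraries came from different mice, so the p-values measure the spread between these libraries, which may be partly technical. The comparison asked which genes differed between the diets.

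Proteins bound for the membrane, the lysosome or secretion are folded in the endoplasmic reticulum (ER) by chaperones and by enzymes that form disulfide bonds. When unfolded proteins build up there, the sensors IRE1 (encoded by Ern1), PERK (Eif2ak3) and ATF6 start the unfolded protein response, and the transcription factors ATF6 and XBP1 raise the chaperone genes through a promoter element called the ER stress response element (ERSE). In kidney cortex most cells are proximal tubule cells, which make large amounts of membrane transporters and uptake receptors.

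The ERSE was searched for in the RefSeq promoter windows of the genes (build GRCm38.p6, 250 bases before to 50 bases after each start site, both strands), since it is the sequence through which these genes are known to be raised together. Windows were given for 8 of the 10 genes: Hspa5, Hsp90b1, Sdf2l1, Creld2, Pdia4, Pdia6, Calr and Xbp1. The motif, CCAAT and CCACG separated by 9 bases of any kind, matched exactly in 5 of these 8 windows, and in 0.119% of all 32851 promoter windows. The motif was picked because it is known from these genes. Its share among them, beside that of all windows, is therefore given as a description, here and below. The 6 sites follow, read on the strand where the motif runs forward, with the fixed letters in capitals and the spacer in lower case.
Hspa5 (chr2:34772025-34772043, + strand): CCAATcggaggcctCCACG
Hsp90b1, far site (chr10:86705638-86705656, - strand): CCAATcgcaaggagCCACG
Hsp90b1, near site (chr10:86705533-86705551, + strand): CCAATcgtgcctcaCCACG
Creld2 (chr15:88819520-88819538, - strand): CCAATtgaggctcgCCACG
Pdia6 (chr12:17266491-17266509, + strand): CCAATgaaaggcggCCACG
Calr (chr8:84847075-84847093, + strand): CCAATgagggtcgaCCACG

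Counted from the RefSeq start sites, which differ from the GENCODE M21 gene bounds given below for Hspa5 and Pdia6 among others, the far end of the Hspa5 site lay 65 bases upstream and that of the Pdia6 site 98 bases upstream. The Hspa5 site falls inside the GENCODE bounds of the gene. The sites of Creld2 and Calr lay on the strand opposite to the gene, with far ends 126 and 162 bases before the RefSeq start. Pdia4 held a stretch that matched with 1 mismatch at the fixed letters. A match with at most 1 mismatch, exact sites included, was found in 6 of the 8 windows and in 1.5% of all windows. Sdf2l1 and Xbp1 had no such match. The related motifs ERSE-II (ATTGG and CCACG separated by 1 base) and TGACGTGG were in none of the 8 windows, against 0.0365% and 0.676% of all windows. These are matches of letters, not measured binding sites. Upstream sequences of 3 genes are printed because they set the motif beside different values: Creld2, with a site and a fall on the high fat diet, Sdf2l1, with a fall and no exact match, and Calr, with a site and overlapping diets. Capitals mark the fixed letters of the ERSE on the strand of the gene.
Creld2, upstream (chr15:88819396-88819645, + strand): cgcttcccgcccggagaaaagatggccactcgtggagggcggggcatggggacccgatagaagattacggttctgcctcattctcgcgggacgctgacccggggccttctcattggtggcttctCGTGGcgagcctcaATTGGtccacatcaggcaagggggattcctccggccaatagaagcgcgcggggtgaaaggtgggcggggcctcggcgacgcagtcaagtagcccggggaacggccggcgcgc
Sdf2l1, upstream (chr16:17132384-17132633, - strand): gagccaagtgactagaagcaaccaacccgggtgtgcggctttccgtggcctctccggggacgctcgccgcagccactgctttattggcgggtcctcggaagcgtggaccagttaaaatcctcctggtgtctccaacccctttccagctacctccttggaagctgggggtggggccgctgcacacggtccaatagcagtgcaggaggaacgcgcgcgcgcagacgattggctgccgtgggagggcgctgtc
Calr, upstream (chr8:84846935-84847181, - strand): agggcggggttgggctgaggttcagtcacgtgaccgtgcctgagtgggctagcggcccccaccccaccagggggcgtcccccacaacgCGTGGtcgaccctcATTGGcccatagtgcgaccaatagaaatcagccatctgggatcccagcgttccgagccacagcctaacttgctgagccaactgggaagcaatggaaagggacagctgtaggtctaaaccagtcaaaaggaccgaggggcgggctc

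Values per library are CPM, counts scaled to a library total of 1000000, computed from the deposited expected counts after the ribosomal RNA precursor Rn45s was left out and libraries were scaled with TMM factors. Total expected counts ran from 23503593 to 30781585 per library, and Rn45s took 50.3% of those of control J against 1.23% to 13.3% in the other 7 libraries, so control J had 13993652 counts for all other genes. The members rested on 162 (Sdf2l1) to 22333 (Calr) counts per library. The summed level of proximal tubule markers differed between the diets, at 52788 to 57804 CPM on the high fat diet against 44442 to 51718 CPM on the control diet (10 markers, of which 2 rose and 2 fell; exact two-sided permutation p = 0.0286, which no split of the 70 can go under). Plasma and B cell markers, of a cell type rich in these chaperones, summed to 3.36 to 5.12 CPM on the high fat diet and 1.23 to 2.79 CPM on the control diet (7 matched markers, 2 of them tested, of which 1, Igj, rose). Medulla and collecting duct markers summed to 2845 to 3619 against 3585 to 4119 CPM, with 2 of 7 tested lower. Macrophage (89.6 to 117 against 80.7 to 115 CPM), fat (37.9 to 41.7 against 31.7 to 39.2 CPM), muscle (0.746 to 1.08 against 0.86 to 1.56 CPM) and red cell sums (808 to 4194 against 742 to 1837 CPM, highest in high fat G and then control J) overlapped between the diets, with none of their genes called in edgeR (3 were at an unadjusted p below 0.05) or in DESeq2 or limma-voom. No marker of these lists was at 0 in every library. In bulk tissue, fewer cells of a type and less RNA per cell cannot be told apart, and the part of cell makeup in the differences below was not tested.

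Of the 10 genes, 6 were lower on the high fat diet in edgeR (adjusted p below 0.05 by the quasi-likelihood test, with Benjamini-Hochberg adjustment over the 14711 genes), beside 5.13% of all tested genes, and none was higher, beside 4.86%. At an unadjusted p below 0.05, 8 were lower, beside 14.1% of all genes, and none was higher. None was called higher in DESeq2 or limma-voom. The 6 were Hspa5, Manf, Sdf2l1, Creld2, Pdia4 and Xbp1, and their falls ran from 14.2% (Pdia4) to 42.7% (Manf). Hsp90b1, Hyou1, Pdia6 and Calr did not pass. The median log2 fold change of the 10 genes was -0.37, against -0.0023 over all tested genes. Since the 10 genes were chosen with earlier results of these data known, their contrasts with all genes are given as a description. In 4 genes, Hspa5, Manf, Sdf2l1 and Pdia4, every high fat library lay below every control library, as in 9.2% of all tested genes. With control J left out, Hspa5, Manf and Sdf2l1 were called, beside 2.55% of all genes called lower, and with control J and high fat G removed, 0 were called in edgeR, beside 1.17%, and 7 were lower at an unadjusted p below 0.05 in that fit of 3 against 3 libraries, beside 10.4% of all genes.

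Hspa5 encodes BiP (GRP78), the Hsp70 chaperone of the ER lumen that also holds the stress sensors inactive. Its gene lies on chromosome 2 from 34771970 to 34777547 on the + strand (GRCm38, GENCODE M21). Its level was 491, 404, 472 and 501 CPM in high fat A, B, F and G and 837, 838, 601 and 596 CPM in control I, J, L and M. Control I and J were well above control L and M, and the lowest control library was still above the highest high fat library. The means were 467 ± 43.8 on the high fat diet and 718 ± 138 CPM on the control diet (SD, n = 4), and the difference was -0.62 ± 0.12 on the log2 scale (SE; edgeR, adjusted p = 0.0128). The call held in each of the 8 fits without 1 library, with adjusted p up to 0.0381 (without control J). It was at adjusted p = 0.0622 in edgeR, with a log2 fold change of -0.57, with control J and high fat G removed.

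The other chaperones of heat shock protein families differed less. Hsp90b1 encodes GRP94, the Hsp90 of the ER, which serves integrins and Toll-like receptors among others, on chromosome 10 from 86690209 to 86705509 (- strand). Its level was 500.0, 461, 499 and 450.3 CPM in high fat A, B, F and G and 599, 590.2, 489 and 497 CPM in control I, J, L and M. The diets overlapped, since control L and M lay below high fat A and F. The log2 difference, high fat minus control, was -0.19 ± 0.08 (SE; edgeR, adjusted p = 0.15). Hyou1 encodes GRP170, a large relative of Hsp70 that exchanges the nucleotide of BiP, on chromosome 9 from 44379490 to 44392369 (+ strand). It was at 137, 115, 154 and 160.4 CPM in the high fat libraries A, B, F and G against 173, 189, 157 and 164 CPM in control I, J, L and M. Only high fat G reached above the lowest control library, L, and the log2 fold change was -0.27 ± 0.10 (SE; adjusted p = 0.11 in edgeR). Whether Hspa5 and Hsp90b1 changed alike can be read within a library, where no scaling enters. The 4 ratios computed were chosen after the data were seen and are given without a test. The ratio of Hspa5 to Hsp90b1 counts was 0.982, 0.876, 0.946 and 1.11 in high fat A, B, F and G and 1.40, 1.42, 1.23 and 1.2 in control I, J, L and M. Every control library had a higher ratio than every high fat library.

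Calr encodes calreticulin, a lectin that binds calcium and helps fold glycoproteins, on chromosome 8 from 84841850 to 84846934 (- strand). It was at 776, 739.5, 714 and 630.1 CPM in high fat A, B, F and G and 762, 723, 628 and 705 CPM in control I, J, L and M. The diets overlapped throughout, with the highest value in high fat A and the lowest in control L. The log2 fold change was 0.02 ± 0.08 (SE; adjusted p = 0.89 in edgeR). Over the 8 fits without 1 library it ran from -0.03 (without control L) to 0.08 (without high fat G), so its sign was not fixed. Hspa5 and Manf were lower relative to Calr within the high fat libraries. The ratio of Hspa5 to Calr counts was 0.659 ± 0.103 on the high fat diet and 1.01 ± 0.141 on the control diet (SD, n = 4), and that of Manf to Calr 0.0514 ± 0.0077 and 0.0899 ± 0.0180 (SD, n = 4). In both ratios the diets did not overlap.

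Of the protein disulfide isomerases, which form and rearrange disulfide bonds, Pdia4 fell and Pdia6 did not pass. Pdia4 (ERp72, chromosome 6, 47796141 to 47813430, - strand) was at 143, 137, 141 and 136 CPM in high fat A, B, F and G and 178, 161, 154 and 157 CPM in control I, J, L and M. The libraries of each diet were close together and did not overlap, so that a difference of 14.2% passed, at -0.22 ± 0.06 on the log2 scale (SE; edgeR, adjusted p = 0.0345). The call was kept in 2 of 8 fits without a library, those without control L and without control M, and in 8 of 11 other processing settings (not in the 3 limma fits on FPKM), with an edgeR adjusted p reaching 0.0892 when control I was the library left out. Pdia6 (P5, chromosome 12, 17266545 to 17284770, + strand) was at 183, 175, 176 and 149 CPM in high fat A, B, F and G and 199.8, 198, 172 and 176 CPM in control I, J, L and M. Control L was below 3 high fat libraries, and the log2 fold change of -0.13 ± 0.08 (SE) had adjusted p = 0.31 in edgeR. The bounds of Pdia6 overlap those of Atp6v1c2 on the other strand; no source used here states strand use in the counting, so shared reads cannot be told apart. The same holds for the bounds of Hsp90b1, which overlap a pseudogene, 1810014B01Rik, on the other strand.

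The remaining soluble ER proteins, Manf, Sdf2l1 and Creld2, all fell. Manf encodes a secreted factor that binds BiP and is a known marker of ER stress, on chromosome 9 from 106838312 to 106891979 (- strand). Its annotated bounds overlap 4 genes, among them Dcaf1 on the other strand and Rbm15b on the same strand. Reads shared with them, if any, cannot be told apart here. Manf was at 33.9, 36.6, 35.8 and 39.2 CPM in high fat A, B, F and G and 84.5, 68.9, 53.6 and 47.9 CPM in control I, J, L and M. The high fat libraries were close together while the control libraries spread widely, with control I the highest. The means were 36.4 ± 2.18 and 63.7 ± 16.4 CPM (SD, n = 4), and the difference was -0.80 ± 0.15 on the log2 scale (SE; edgeR, adjusted p = 0.0097).

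Sdf2l1 encodes a partner of ER DnaJ proteins in the BiP cycle, on chromosome 16 from 17130138 to 17132383 (- strand). It was at 7.31, 7.83, 8.79 and 7.07 CPM in high fat A, B, F and G and 15.4, 16.3, 11.4 and 10.5 CPM in control I, J, L and M. The diets did not overlap, and control I and J again stood above control L and M. The log2 difference, high fat minus control, was -0.77 ± 0.15 (SE; edgeR, adjusted p = 0.0106). Manf and Sdf2l1 kept their calls in each of the 8 fits without 1 library, with adjusted p up to 0.0314 for Manf (without control J) and 0.0327 for Sdf2l1 (without control I) in edgeR.

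Creld2 encodes a disulfide isomerase-like protein with EGF-like repeats, on chromosome 15 from 88819646 to 88826683 (+ strand). It was at 26.9, 26.5, 27.0 and 32.1 CPM in high fat A, B, F and G and 52.6, 55.4, 31.1 and 36.3 CPM in control I, J, L and M. Control L lay just under high fat G, so the diets overlapped by these libraries. The means were 28.1 ± 2.65 CPM on the high fat and 43.9 ± 12 CPM on the control diet (SD, n = 4). The log2 difference, high fat minus control, was -0.63 ± 0.16 (SE; edgeR, adjusted p = 0.0367). It was called in 6 of 11 other processing settings, and not in limma-voom, edgeR's robust fit or the 3 limma fits on FPKM. The call was lost without high fat A, B or F or control I or J, with an edgeR adjusted p reaching 0.0995 when control I was the library left out.

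Xbp1 is the regulator among the 10 genes, a transcription factor made active when IRE1 splices its RNA. The table holds 1 value per gene and does not separate spliced from unspliced Xbp1. The gene lies on chromosome 11 from 5520659 to 5525893 (+ strand). Its level was 94.0, 119, 99.9 and 137.9 CPM in high fat A, B, F and G and 183, 177, 137.7 and 133 CPM in control I, J, L and M. High fat G was above control L and M. The log2 difference, high fat minus control, was -0.48 ± 0.14 (SE; edgeR, adjusted p = 0.0455). It was called in 5 of 11 other processing settings, and not in edgeR's robust fit, with a minimum mean of 5 CPM, with a length trend removed or in the 3 limma fits on FPKM. The call was also lost without high fat A, B or F or control I or J, with an edgeR adjusted p reaching 0.122 when control I was the library left out.

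**Figure D1:**
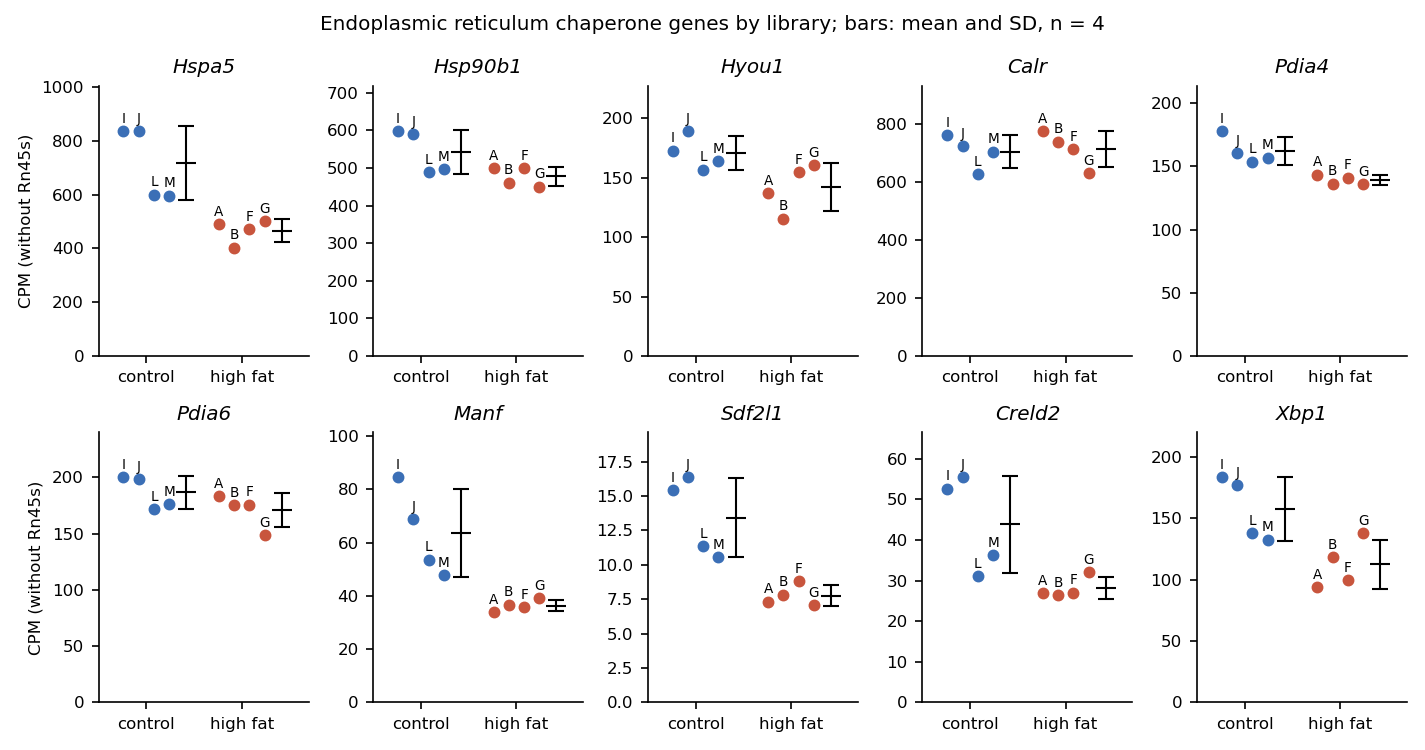
Level of each gene in CPM (y axis, from 0, Rn45s left out) in the 4 control and 4 high fat libraries, lettered as in the labels, with the mean and SD beside each group. Hspa5, Pdia4, Manf and Sdf2l1 do not overlap between the diets, and control I and J lie above control L and M in all 10 panels.

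The plot of values by library shows how far each call rests on the control group. In all 10 genes control I and control J were both above control L and control M, an order seen in 17.8% of all tested genes. The median over the 10 genes of log2 CPM relative to the mean of each gene was 0.36 in control I and 0.36 in control J, but 0.026 in control L and 0.033 in control M. In high fat A, B, F and G it was -0.20, -0.26, -0.14 and -0.17. So the high fat libraries lay together, and control L and M lay between them and control I and J. Control J had the high share of Rn45s (50.3%), while control I, at 5.70%, lay within the range of the high fat libraries (4.82% to 13.3%) and was as high in these genes as control J. The cause of the spread among control libraries was not tested. The spread was not general to the 10 genes: the SD of log2 CPM was larger in the control group for 6 of them (Hspa5, Hsp90b1, Manf, Sdf2l1, Creld2 and Pdia4), beside 53.7% of all tested genes, and was 0.37 against 0.086 for Manf but 0.12 against 0.21 for Hyou1.

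**Figure D2:**
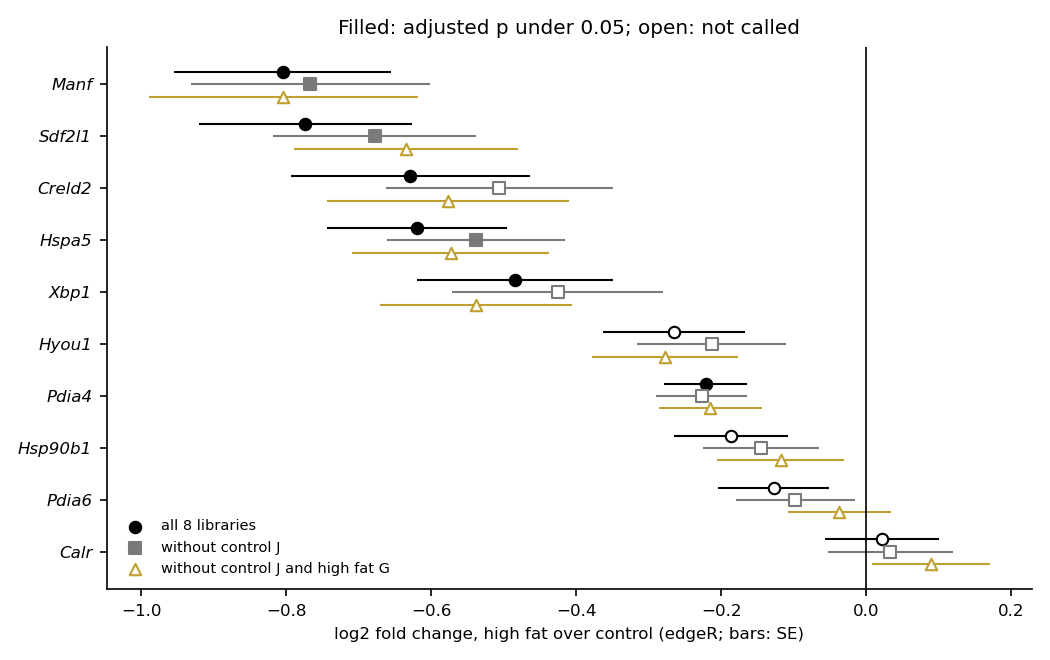
Log2 fold change of each gene, high fat over control, with its SE (x axis, edgeR) over all 8 libraries, with control J removed, and with control J and high fat G removed; filled symbols passed an adjusted p under 0.05. Values kept their order of size roughly, from -0.80 (Manf) to 0.02 (Calr) over all libraries, while filled symbols went from 6 to 3 to 0.

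The plot of fold changes separates the size of the differences from the calls. For Manf the log2 fold change was -0.80 over all libraries, -0.77 when control J was left out and -0.80 on the 6 libraries left after high fat G was removed too. For Hspa5 it was -0.62, -0.54 and -0.57, and for Sdf2l1 -0.77, -0.68 and -0.64. These values moved by less than their standard errors, while the adjusted p in edgeR rose to 0.0566 for Manf and 0.0662 for Sdf2l1 in the smallest fit. In the authors' deposited tables of comparisons, which list 1175 and 1133 genes, 2 of the 10 genes were listed. For scale, the deposited counts cover 23504 gene symbols. Hspa5, Manf, Creld2 and Xbp1, called lower here in edgeR, were in neither table, nor were Hsp90b1, Pdia6, Calr and Hyou1. The authors' deposited table with annotation gave Sdf2l1 a fold of 0.582, high fat over control, with a posterior probability of equal expression of 0.0190, and Pdia4 a fold of 0.859 with a probability of 0.0352. The authors' deposited table without annotation gave 0.580 with 0.0213 for Sdf2l1 and 0.860 with 0.0359 for Pdia4.

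**Figure D3:**
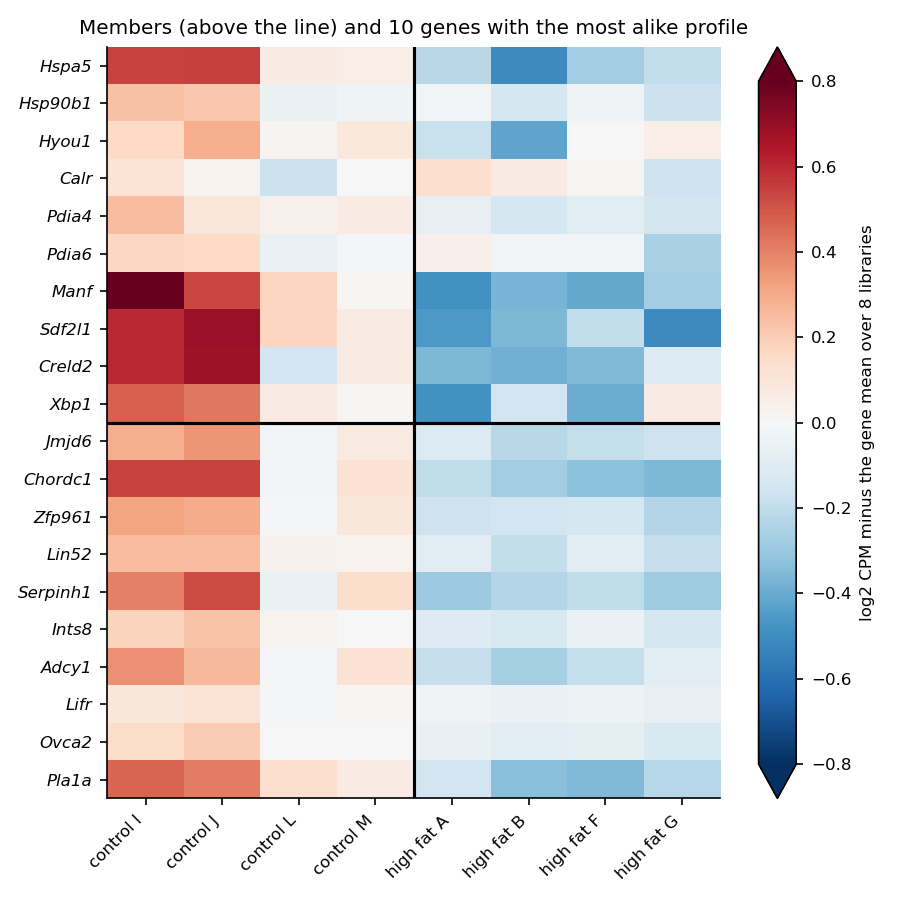
Log2 CPM of each gene minus its mean over the 8 libraries (colour scale) in each control and high fat library (columns), for the 10 chaperone genes (above the line) and the 10 other genes with the most alike profile (below it). Control I and J are the reddest columns in both blocks, and the high fat columns are mostly blue.

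Most of the 10 genes varied together across libraries, as the colour map shows, with Calr less like several of them. Over the 45 pairs the median Pearson r of log2 CPM over 8 libraries was 0.75 (range -0.21 to 0.95), and after each diet's mean was taken out it was 0.60 (range -0.20 to 0.92). Over 8 libraries Calr had r = 0.10 with Hspa5, 0.07 with Manf, -0.14 with Xbp1 and -0.21 with Hyou1, but 0.73 with Pdia6 and 0.49 with Hsp90b1. After each diet's mean was taken out, Calr had r = 0.92 with Pdia6, 0.72 with Hsp90b1 and 0.71 with Pdia4. By that measure it had 0.34 with Hspa5, 0.30 with Manf, -0.10 with Xbp1 and -0.20 with Hyou1. Other gene pairs were not computed. The points of these correlations share libraries and scaling, so they are given as a description. Of 10241 other tested genes with at least 5 CPM on average, the 10 whose profile was most like the mean of the chaperone genes were Jmjd6, Chordc1, Zfp961, Lin52, Serpinh1, Ints8, Adcy1, Lifr, Ovca2 and Pla1a, with r from 0.965 to 0.979 over 8 libraries and 0.881 to 0.929 for deviations from the diet means. They were chosen on the same 8 values that hold the diet difference, so their levels are given as a description and their calls support nothing. Serpinh1 encodes Hsp47, the ER chaperone of collagen, and was the only one of the 10 in the lists of ER genes used here. It was at 85.0, 88.4, 90.2 and 85.1 CPM in high fat A, B, F and G and 137, 149, 99.98 and 115 CPM in control I, J, L and M. Chordc1, which encodes a cochaperone of cytosolic Hsp90, was at 58.0, 55.1, 53.2 and 52.2 CPM in high fat A, B, F and G and 97.1, 97.2, 65.8 and 72.5 CPM in control I, J, L and M. The likeness to the chaperone genes, control I and J above control L and M included, follows from how these genes were chosen.

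Levels of different genes were compared per transcript length, as deposited FPKM values rescaled to a sum of 1e6 per library without Rn45s. On the control diet the order was Calr (728 ± 64.7), Hspa5 (558 ± 88.3), Hsp90b1 (391 ± 32.8), Xbp1 (176 ± 24), Pdia6 (175 ± 10.7), Pdia4 (131 ± 10.6), Hyou1 (75.9 ± 3.68), Creld2 (64.9 ± 15.5), Manf (57.5 ± 13.9) and Sdf2l1 (24.7 ± 4.27 rescaled FPKM, SD, n = 4 for each). Calr stood at the 98.8th percentile of tested genes on this scale and Sdf2l1 at the 65.8th. Libraries of neighbours in this order overlapped for Calr and Hspa5, for Xbp1 and Pdia6, for Hyou1 and Creld2 and for Creld2 and Manf. On the high fat diet Hspa5, at 302 to 404 rescaled FPKM, overlapped Hsp90b1 (319 to 377) and lay below Calr (673 to 804). On the control diet Hspa5, at 473 to 656, was above Hsp90b1 (355 to 434) and reached the lowest library of Calr (654). The 10 genes together made up 0.219% to 0.237% of counts outside Rn45s on the high fat diet and 0.252% to 0.315% on the control diet, with control L the lowest and control I the highest of the control libraries.

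**Figure D4:**
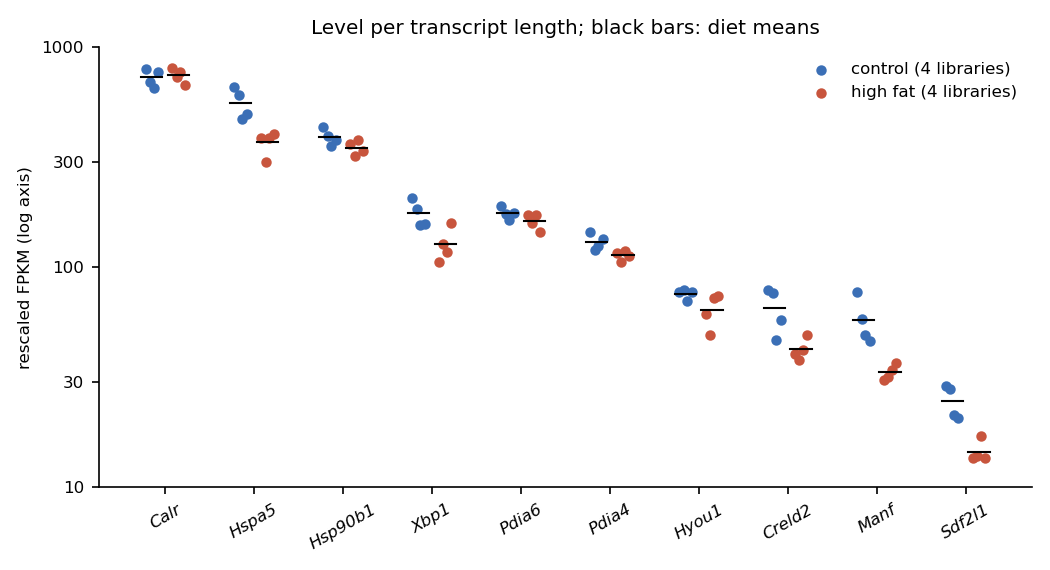
Rescaled FPKM (y axis, log scale) of the 10 genes in each library, ordered by the control mean, with black bars at the diet means. Calr, Hspa5 and Hsp90b1 are the highest, and Hspa5 goes from 558 on the control diet to 369 on the high fat diet, beside 391 and 348 for Hsp90b1.

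Other genes of the ER folding and transport machinery were followed in 6 lists, which hold 131 tested genes. Of these, 13 fell, 2 rose and 116 did not pass in edgeR, beside 5.13% and 4.86% of all tested genes, and their median log2 fold change was -0.04. Without control J, 8 fell, beside 2.55% of all genes. Of the sensors and regulators of the unfolded protein response, 1 of 15 fell and 14 did not pass. The one that fell was Atf4, a factor translated when PERK is active, from 78.7 ± 3.22 to 61.5 ± 2.85 CPM (SD, n = 4), which was -0.35 on the log2 scale (edgeR, adjusted p = 0.0044). Ern1 was at 22.3 ± 2.41 CPM on the high fat and 18.6 ± 2.46 CPM on the control diet (SD, n = 4; adjusted p = 0.14 in edgeR). Eif2ak3, Atf6 and Ddit3, which encodes the stress factor CHOP, had log2 fold changes of -0.07, 0.05 and 0.15, and none of them passed. At an unadjusted p below 0.05 in edgeR, 4 of the 15 were higher and 1 was lower, beside 1952 and 2074 of all 14711 tested genes. In DESeq2, Creb3l2 was also called higher, beside 941 of all tested genes.

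Of 11 ER DnaJ proteins and exchange factors, 1 rose, beside 4.86% of all tested genes called higher, and 10 did not pass. The gene that rose was Dnajb12, up by 0.34 on the log2 scale (adjusted p = 0.0255 in edgeR, and 0.0645 without control J). Dnajb9, Dnajb11 and Dnajc3, which hand substrates to BiP, had log2 fold changes of -0.01, -0.13 and -0.03 and did not pass. Of 33 other folding enzymes and lectins, 3 fell (Serpinh1, Txndc5 and Fkbp9), 1 rose (Tmx1) and 29 did not pass. Over all tested genes, 5.13% were called lower and 4.86% higher. Serpinh1 fell by 0.52, the disulfide isomerase gene Txndc5 by 0.36 and the prolyl isomerase gene Fkbp9 by 0.26, while Tmx1, a membrane-bound thioredoxin, rose by 0.21 on the log2 scale. Tmx1 was at adjusted p = 0.0879 in edgeR without control J. Canx, which encodes calnexin, the membrane relative of calreticulin, was at 887 ± 35.8 against 892 ± 24.1 CPM, and Pdia3, the isomerase that works with both, at 312 ± 24 against 321 ± 21.1 CPM (high fat and control, SD, n = 4). P4hb, the founding disulfide isomerase, was at 799.9 ± 33.1 against 875 ± 31.8 CPM (SD, n = 4); its diets did not overlap, but it did not pass (adjusted p = 0.16 in edgeR).

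For Manf, Sdf2l1 and Creld2 the list held 1 close relative each. Sdf2, the relative of Sdf2l1, was at 42.5 ± 2.49 CPM on the high fat and 41.4 ± 2.34 CPM on the control diet (SD, n = 4). Creld1, the relative of Creld2, was at 20.1 ± 1.65 and 19.0 ± 3.19 CPM, and Cdnf, the relative of Manf, at 1.10 ± 0.117 and 0.922 ± 0.260 CPM (high fat and control, SD, n = 4). None of the 3 passed, at adjusted p = 0.73, 0.70 and 0.56 in edgeR. The difference between relatives was not tested.

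ER-associated degradation returns misfolded proteins to the cytosol. In its list 1 of 23 genes fell, beside 5.13% of all tested genes, and 22 did not pass. The gene that fell was H47, the older symbol of Selenos, by 0.39 on the log2 scale (adjusted p = 0.0132 in edgeR). Herpud1, at 371 ± 22.8 against 372 ± 60.0 CPM, and Sel1l, at 167 ± 19.5 against 159 ± 18.2 CPM (high fat and control, SD, n = 4), did not pass. In the list of the translocon, signal peptidase and glycosylation, 6 of 27 fell, beside 5.13% of all tested genes, and 21 did not pass. The signal peptidase genes Spcs2 and Spcs3 fell by 0.26 each and the translocon-associated genes Ssr2 and Ssr1 by 0.25 and 0.18 on the log2 scale, with adjusted p from 0.0114 (Spcs2) to 0.0411 (Ssr1) in edgeR. Sec61a1 and Mogs were the other two, named here after their values were seen. Without control J, 3 of the 27 were called (Spcs2, Spcs3 and Ssr2), beside 2.55% of all genes called lower. With high fat G removed too, 0 were called in edgeR, beside 1.17%. At an unadjusted p below 0.05 in that fit, 8 were lower, beside 10.4% of all genes. Of 22 genes of ER export and retrieval, 2 fell, beside 5.13% of all tested genes, and 20 did not pass. Kdelr2, a receptor that returns chaperones to the ER, fell by 0.24, and Sec23b, a coat protein of export vesicles, by 0.23. Both lost their calls without control J (adjusted p = 0.0568 and 0.0517 in edgeR).

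Of 7 tested cytosolic relatives of these chaperones, 4 fell (Hspa8, Hspa1a, Hspa1b and Hspa4), beside 5.13% of all genes called lower. The other 3 (Hsph1, Hsp90aa1 and Hsp90ab1) did not pass in edgeR. Hsph1 and Hsp90aa1 had log2 fold changes of -0.51 and -0.30 (adjusted p = 0.0774 and 0.0741 in edgeR). In DESeq2 these 2 were called lower too, so 6 of the 7 were, beside 885 of all 14711 tested genes. Without control J, edgeR called 3 of the 7, beside 2.55%. Hspa8, the constitutive Hsp70 of the cytosol, fell from 4488 ± 538 to a mean of 3252 ± 136 CPM (SD, n = 4), a log2 difference of -0.46 (adjusted p = 0.00998 in edgeR), while Hsp90ab1 was at 959.5 ± 64.0 against 992 ± 114 CPM (high fat and control, SD, n = 4; adjusted p = 0.76 in edgeR). The ratio of Hspa5 to Hspa8 counts overlapped between the diets, at 0.144 ± 0.0183 on the high fat and 0.159 ± 0.0171 on the control diet (SD, n = 4). Hspa1a and Hspa1b, near-identical copies whose reads the counting may have split, fell by 1.38 and by 1.51 (log2), and Hspa4, a cytosolic exchange factor, by 0.17. Hspa4 was at adjusted p = 0.0617 in edgeR without control J. With control J and also high fat G removed, the calls of Atf4, Hspa8 and Hspa1a were kept. Atf4 was then the 1 gene called lower of the 131 ER genes, beside 1.17% of all genes.

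**Figure D5:**
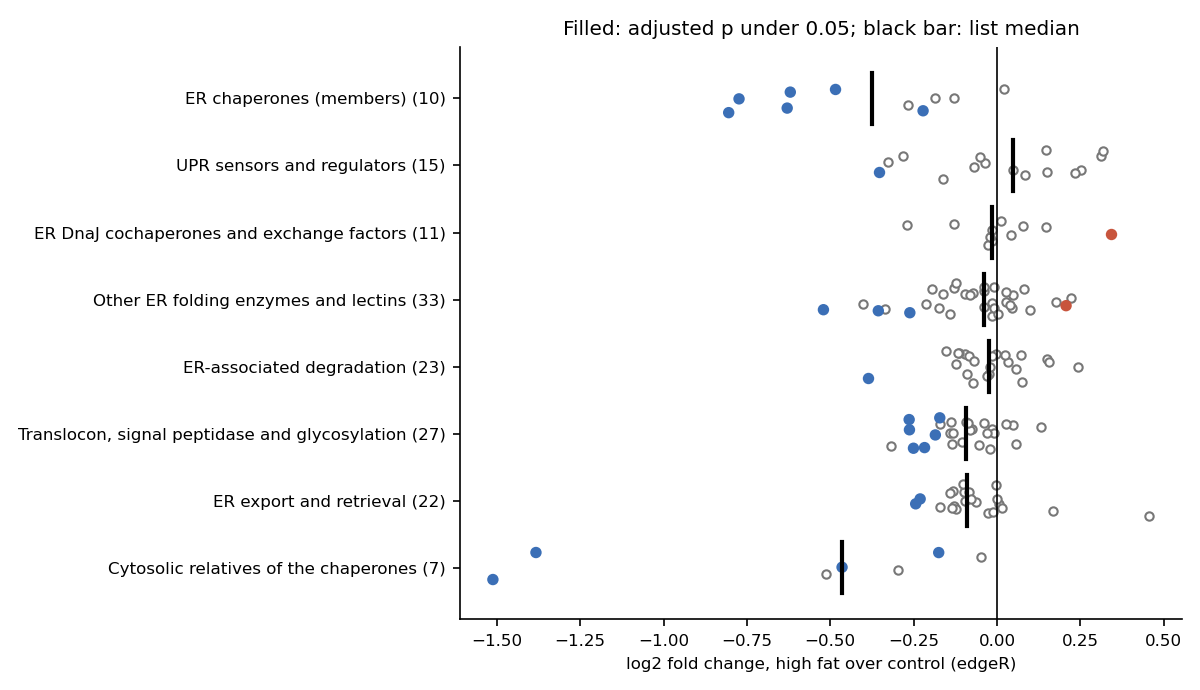
Log2 fold change of each tested gene, high fat over control (x axis, edgeR), in the 10 chaperone genes and 7 related lists, with the number of tested genes in parentheses; filled points passed an adjusted p under 0.05 and black bars are list medians. The median is -0.37 for the 10 genes, -0.46 for the cytosolic relatives and between -0.09 and 0.05 for the 6 other ER lists.

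Members with an exact match to the promoter motif shown above were found on both sides of the threshold. Manf and Hyou1 had no window, and whether the motif goes with a fall or its absence was not tested. Of the 5 genes with an exact ERSE, Hspa5 and Creld2 fell and Hsp90b1, Pdia6 and Calr did not pass. Sdf2l1, Pdia4 and Xbp1, whose windows held no exact match, fell. Exact matches were found in windows of 37 genes, of which 19 were found under the same symbol among the tested genes. Genes counted under an older symbol, such as Ero1b (Ero1lb in the counts, not called), were missed by this match. Of these 19, Hspa5 and Creld2 were called lower in edgeR, beside 5.13% of all tested genes, and 4 were lower at an unadjusted p below 0.05, beside 14.1%. Both called genes are among the chaperone genes. Of the 14 outside them, 0 were called lower and 0 higher in edgeR, beside 5.13% and 4.86% of all tested genes. At an unadjusted p below 0.05 in edgeR, 1 of the 14 was lower, beside 14.1%. Their median log2 fold change was -0.02.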

How the data were processed

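The 8 libraries were RNA sequencing libraries of outer kidney cortex, 4 per diet. Per the submitters' processing notes, reads were handled with CASAVA 1.8.2 and RSEM 1.2.9 on mm10; no source used here states strand use in counting. The deposited tables give RSEM expected counts and FPKM per gene symbol. The authors' deposited comparison tables give a ratio (fold, high fat over control) and a score, the posterior probability of equal expression; no source used here names their tool.

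Expected counts were rounded to whole numbers, Rn45s was left out, low genes were filtered with edgeR's filterByExpr, and the diets were compared with edgeR 4.0.16 (TMM, quasi-likelihood test, Benjamini-Hochberg) in R 4.3.3. Scripts were tested on simulated data. Alternatives were DESeq2 1.42.0, limma-voom and limma 3.58.1 on log2(FPKM + 0.1) above a mean of 0.5 FPKM, other filters and thresholds, a length correction and leaving out libraries. Exact permutation tests were two-sided. Promoter windows were from RefSeq and gene bounds from GENCODE M21.

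The members and lists were chosen with earlier results of these data known. Named were all 10 members, up to 4 called genes of smallest p per list, 18 genes whatever their result, and the 10 genes of most alike profile.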

Additional observations from a re-analysis of the deposited data

Results flagged for a closer look

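The 10 chaperone genes, 33 genes of the related lists and the 4 count ratios were looked at for a single library standing apart within a diet, by the gap of the highest or lowest library to its nearest neighbour as a share of the range. In 94 groups of 4 libraries, 3 were above the critical value for 4 libraries, which chance passes in about 1 group in 20. Creld2 was highest in high fat G, at 32.1 CPM against 26.5 to 27.0 CPM in the other 3 high fat libraries (share 0.902), and this library is the one that overlapped the control group. Spcs3 was lowest in high fat A, at 57.7 CPM against 60.5 to 61.0 CPM (share 0.861). Hspa1a was lowest in high fat A, at 11.8 CPM against 13.0 to 13.2 CPM (share 0.865).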

How the results depend on the processing

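Hspa5, Manf and Sdf2l1 were called in each fit without 1 library and lost their calls without control J and high fat G together. Of the 10 chaperone genes, 6 were called lower; edgeR's robust fit called 4, limma-voom 5, limma on FPKM called 3 at either pseudocount and 3 without a filter, the fit without control J and high fat G called 0, an adjusted p under 0.01 left 1, and fits without 1 library called 3 to 6. None was called higher under any alternative. These counts are to be read beside those of all genes, which changed with the setting too. Of all tested genes, 754 were called lower in edgeR, 885 in DESeq2 and 735 in limma-voom. The share called lower was 5.13% over all libraries and 2.55% once control J was dropped. It was 1.17% when high fat G was dropped as well. In both directions together, the robust fit called 1483 genes, and totals for other settings follow below. The median log2 fold change of the 10 genes stayed between -0.46 and -0.33.

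Over all genes, 1469 were called, against 812 (FPKM + 0.1), 825 (FPKM + 1) and 612 (FPKM, no filter) by limma, 417 with control J and high fat G left out, 2547 and 330 at an adjusted p under 0.1 and 0.01, and between 739 (high fat F left out) and 1528 (control M left out) in fits on 7 libraries. Related ER genes called lower numbered 13, against 7 by limma on FPKM + 0.1, 6 without its filter, 1 without control J and high fat G, 1 at an adjusted p under 0.01, and 7 to 12 without 1 library. Those called higher numbered 2, against 4 by DESeq2, 1 without a filter on low counts, 0 by each limma fit on FPKM, 0 with control J and high fat G left out, 0 at an adjusted p under 0.01, and 0 to 2 without 1 library. The cause of these shifts was not tested beyond the fewer libraries or the changed threshold that some of them are made of. No paired analysis was possible because the library letters differ between the diets. With 4 libraries per diet an exact permutation p cannot go below 0.0286.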
